A study of Homo sapiens with 10 samples.

Results

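Elafin (PI3), SLPI and lipocalin-2 (LCN2), the serum amyloid A proteins SAA1 and SAA2, and the complement proteins C3 and factor B (CFB) are secreted defence proteins. Their 7 genes were taken by symbol from the 58222 genes of a TPM table, a measure of RNA abundance per transcript length that sums to the same value in every library. They were chosen by their TPM, for a higher level in silica gel or after cisplatin, so the levels in those groups are described here with no test. RNA came from 10 samples of OVCAR-3, a line of human ovarian adenocarcinoma cells kept in RPMI medium with fetal bovine serum, in 5 groups of 2 replicates. Control cells stayed in standard culture. Day1 cells were held in silica gel for 24 hours and Day3 cells for 3 days. Extracted cells were those that lived through 3 days in gel and then grew in standard culture for 2 weeks. Treated cells were those that lived through 24 hours in cisplatin (a DNA-damaging platinum compound) at 0.5 uM, and then recovered for 2 weeks. Extracted and Treated are therefore populations of survivors, and their recovery time has no matched untreated culture of its own among the groups. All samples came from the same cell line, and in bulk RNA a change in the number of cells making a transcript cannot be told apart from a change in the amount per cell.

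Epithelia that face microbes secrete a shared set of defence proteins, and the liver releases many of the same proteins into plasma in the acute-phase response. Elafin and SLPI carry the whey acidic protein fold and block neutrophil serine proteases. Lipocalin-2 binds bacterial siderophores and so withholds iron. Serum amyloid A is an acute-phase apolipoprotein, C3 is the central component of complement, and factor B forms with C3b the convertase of the alternative pathway. NF-kB, C/EBP and STAT3 are known transcriptional regulators of many of these genes, downstream of cytokines such as IL-1, IL-6 and TNF.

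Elafin and SLPI share a fold that disulfide bonds hold, and their coding sequences (GENCODE release 29) are shown from the first cysteine codon to the stop codon, with each in-frame cysteine codon in capitals. These are bases 226 to 354 of PI3, with 8 such codons, and 103 to 399 of SLPI, with 16.
PI3: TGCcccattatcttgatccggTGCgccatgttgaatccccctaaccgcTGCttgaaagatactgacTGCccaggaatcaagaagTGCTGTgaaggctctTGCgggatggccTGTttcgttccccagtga
SLPI: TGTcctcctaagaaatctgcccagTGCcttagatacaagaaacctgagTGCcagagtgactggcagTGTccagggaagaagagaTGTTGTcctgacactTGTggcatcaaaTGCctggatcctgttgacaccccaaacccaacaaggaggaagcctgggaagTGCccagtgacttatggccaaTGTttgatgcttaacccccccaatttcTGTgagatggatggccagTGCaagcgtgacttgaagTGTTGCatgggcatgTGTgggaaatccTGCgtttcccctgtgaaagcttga

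SAA1 and SAA2 are near-identical copies, which bears on how far their TPM can be separated. Their coding sequences (369 bases each with the stop codon) differ at 11 positions in 9 codons (97.0% identity). Bases 220 to 369, which hold 10 of the differences, are shown with the bases that differ in capitals. The longest run without a difference is 186 bases, so reads can be shared between them.
SAA1: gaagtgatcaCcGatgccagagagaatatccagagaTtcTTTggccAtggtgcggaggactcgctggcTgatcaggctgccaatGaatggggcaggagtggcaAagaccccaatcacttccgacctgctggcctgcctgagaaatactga
SAA2: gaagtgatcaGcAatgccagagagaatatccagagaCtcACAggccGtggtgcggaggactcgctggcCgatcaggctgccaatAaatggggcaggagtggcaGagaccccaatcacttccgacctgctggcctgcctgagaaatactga

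RefSeq promoter entries (GRCh38.p14) matched 2 of the 7 genes, LCN2 and CFB. These entries, and not the expression of the genes, decided which windows are shown. The 250 bases before each start are shown with motif matches in capitals. Searched on both strands were the NF-kB consensus, C/EBP (TTNNGCAA), AP-1 (TGANTCA), STAT (TTCNNNGAA) and the interferon-stimulated response element. These were found in 5.21%, 9.05%, 6.57%, 6.57% and 3.02% of all 35116 windows of that length. The LCN2 window (chr9:128149203-128149452, plus strand) held an NF-kB match from -175 to -166, a C/EBP match from -143 to -136 and an AP-1 match from -52 to -46. The CFB window (chr6:31945845-31946094, plus strand) held an interferon-stimulated response element match from -140 to -131 and a STAT match from -92 to -84. Positions count back from the base before the RefSeq start, which for both genes lies inside the GENCODE span given below, no match overlapped another, and a match describes letters, not binding.
LCN2: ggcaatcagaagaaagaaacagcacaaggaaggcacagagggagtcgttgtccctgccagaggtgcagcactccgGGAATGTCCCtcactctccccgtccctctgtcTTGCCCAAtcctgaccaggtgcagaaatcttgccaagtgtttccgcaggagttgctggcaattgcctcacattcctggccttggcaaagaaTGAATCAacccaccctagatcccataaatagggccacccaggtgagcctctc
CFB: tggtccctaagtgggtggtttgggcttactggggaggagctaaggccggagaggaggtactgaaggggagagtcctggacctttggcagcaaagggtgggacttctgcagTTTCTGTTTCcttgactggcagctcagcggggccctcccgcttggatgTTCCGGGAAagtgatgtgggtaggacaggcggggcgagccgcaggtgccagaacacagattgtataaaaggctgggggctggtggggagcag

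The members lay at 5 places in GRCh38, all as protein-coding genes. PI3 (ENSG00000124102, chr20:45174876-45176544, plus strand) and SLPI (ENSG00000124107, chr20:45252239-45254564, minus strand) lay 75.7 kb apart. SAA2 (ENSG00000134339, chr11:18239223-18248643, minus strand) and SAA1 (ENSG00000173432, chr11:18266174-18269977, plus strand) lay 17.5 kb apart. LCN2 (ENSG00000148346) spans chr9:128149071-128153455, C3 (ENSG00000125730) chr19:6677704-6730562 and CFB (ENSG00000243649) chr6:31945650-31952084.

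The libraries carried the profile of the labelled cell type. Of 12 ovarian carcinoma epithelial markers 11 reached 1 TPM, among them PAX8, WT1, MUC16, EPCAM and KRT7, and ESR1 did not (highest library 0.653 TPM). The 12 summed to 4744 to 4842 TPM in Control and 5858 to 6955 in Treated, and single markers moved both ways. WT1 gave 46.3 and 52.8 TPM in Control and 15.3 and 13.4 in Treated, and MUC16 37.56 and 56.55 against 103.8 and 111.6. Of 12 neutrophil and myeloid markers 1 (CD14) reached 1 TPM, ELANE, CSF3R, CEACAM8 and FCGR3B were listed at 0 in every library, and the summed level was 0.498 to 1.06 TPM in Control and 1.60 to 1.83 in Treated. Of 9 hepatocyte markers 1 (APOA1) reached 1 TPM, APOH, TTR and CYP3A4 were at 0 throughout, and the sum was 1.41 to 2.21 TPM in Control and 1.09 to 1.78 in Treated. Of 9 keratinocyte markers 3 (FLG, KRT10 and KRT5) reached 1 TPM, with sums of 72.6 to 80.9 TPM in Control and 32.1 to 36.9 in Treated. FLG gave 46.5 and 57.2 TPM in Control and 16.5 and 12.5 in Treated. KRT10 gave 23.7 and 22.3 against 17.6 and 16.8, and KRT5 2.21 and 1.40 against 2.64 and 2.64. Of 8 fibroblast and endothelial markers 3 reached 1 TPM (12.7 to 14.5 in Control, 11.9 to 16.7 in Treated). Sequencing depth is unknown, so no counting interval can be given, and the labels do not say whether replicates came from separate cultures, so p-values measure only the spread between these samples, which may be technical. Mitochondrial mRNAs held 15.8% to 16.7% of the TPM in Control, 2.29% to 3.92% on Day1, 5.97% to 7.61% on Day3 and 10.4% to 11.1% in Extracted and Treated cells. Nuclear protein-coding genes held 73.2% of Treated replicate 2 and 81.1% to 94.7% of the other libraries. The median of all tested genes was shifted by 0.12 on Day1 and by -0.15 in Treated cells against Control (log2), and no member's difference from Control in Day1, Day3, Extracted or Treated cells changed sign under median-of-ratios scaling or with nuclear protein-coding genes rescaled alone.

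**Figure D1:**
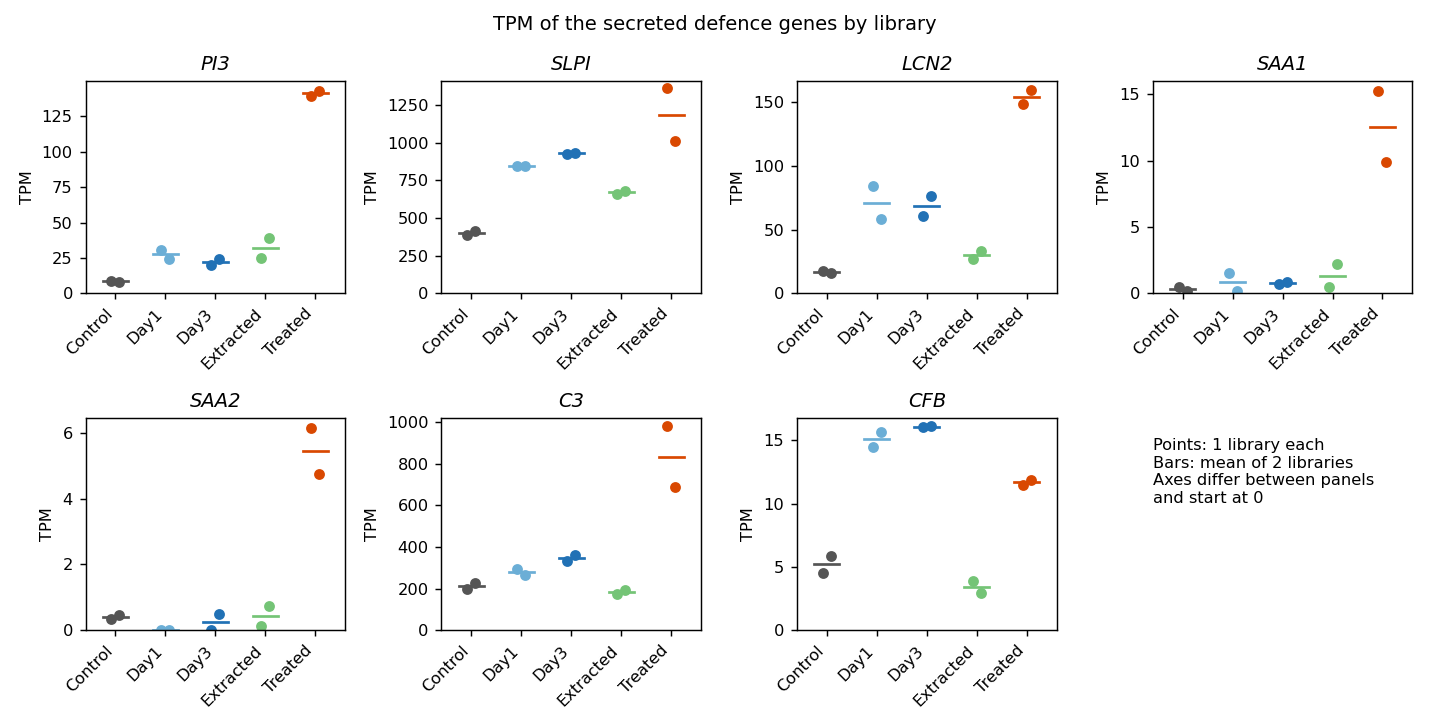
TPM of the 7 genes in each of the 10 libraries (points) with the mean of each group of 2 (bars), by group, each panel with its own axis from 0. The 2 Treated libraries stand above all others for each gene but CFB, for which the Day1 and Day3 libraries stand highest.

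Among the protease inhibitors, PI3 (elafin) had its highest level after cisplatin. Control libraries gave 8.88 and 8.29 TPM, Day1 30.8 and 24.1, Day3 20.05 and 24.2, Extracted 25.2 and 39.0, and Treated 139.0 and 143.0. Every library outside Control was above both Control libraries, the Day1, Day3 and Extracted ranges overlapped at each step of their order, and the Treated pair stood well apart. The mean was 3.20 times Control on Day1, 2.58 times on Day3, 3.74 times in Extracted and 16.4 times in Treated cells.

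SLPI, the most abundant member by TPM, gave 388 and 413 TPM for Control, 847 and 845 for Day1, 923 and 934 for Day3, 662 and 679 for Extracted and 1359.9 and 1012 for Treated. No group range overlapped the next, in the order Treated, Day3, Day1, Extracted and Control. The Treated replicates were the furthest apart (1186 ± 245.8 TPM, SD, n = 2), and the mean was 2.11 times Control on Day1, 2.32 times on Day3 and 2.96 times in Treated cells. SLPI made up 49.9% to 51.1% of the summed TPM of the 7 genes in Treated libraries and 61.7% to 74.4% in the other 8.

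LCN2 (lipocalin-2), the iron-withholding member, gave 17.2 and 16.0 TPM for Control, 84.05 and 58.3 for Day1, 61.1 and 76.4 for Day3, 26.7 and 33.4 for Extracted and 148.8 and 159.4 for Treated. The Day1 and Day3 ranges overlapped, and Extracted lay between Control and the gel groups with no overlap. Its mean was 4.28 times Control on Day1, 4.14 times on Day3, 1.81 times in Extracted and 9.28 times in Treated cells.

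The serum amyloid A genes were near the floor of the table outside Treated cells. SAA1 gave 0.467 and 0.167 TPM for Control, 1.57 and 0.196 for Day1, 0.684 and 0.825 for Day3, 0.496 and 2.18 for Extracted and 15.3 and 9.89 for Treated. SAA2 gave 0.354 and 0.471 TPM for Control, 0 and 0 for Day1, 0 and 0.503 for Day3, 0.116 and 0.747 for Extracted and 6.16 and 4.77 for Treated. The Treated libraries of both genes lay above all others, while the Day1, Day3 and Extracted ranges of SAA1 overlapped and the SAA2 means in gel were below that of Control. An exact 0 in this table may be a failed estimate. The sum of both genes, which depends less on how shared reads were divided between the pair, was 0.638 to 0.821 TPM in Control, 0.196 to 1.57 on Day1, 0.684 to 1.33 on Day3, 0.612 to 2.93 in Extracted and 14.7 to 21.4 in Treated cells. SAA2 reached 1 TPM in 2 of the 10 libraries, both Treated, and SAA1 in 4, so SAA2 passed the filter of at least 1 TPM in at least 2 libraries through Treated cells alone. SAA4, the constitutive family member, was at most 0.287 TPM in any library.

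C3, the complement component on which all activation pathways converge, gave 199.8 and 225.7 TPM for Control, 294.6 and 263.8 for Day1, 333 and 359.7 for Day3, 171 and 193 for Extracted and 981 and 688 for Treated. No group range overlapped the next in the order Treated, Day3, Day1, Control and Extracted. The mean was 1.31 times Control on Day1, 1.63 times on Day3 and 3.92 times in Treated cells, where the replicates were furthest apart (834 ± 207, n = 2). C3 held 19.3% to 36.8% of the summed TPM of the 7 genes.

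CFB had another order. Control gave 4.55 and 5.84 TPM, Day1 14.5 and 15.7, Day3 16.1 and 16.1, Extracted 3.89 and 2.92, and Treated 11.5 and 11.9. The gel groups were highest, Treated lay below them and Extracted was lowest, with no overlap between neighbours in that order. The mean was 2.91 times Control on Day1, 3.10 times on Day3 and 2.26 times in Treated cells.

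**Figure D2:**
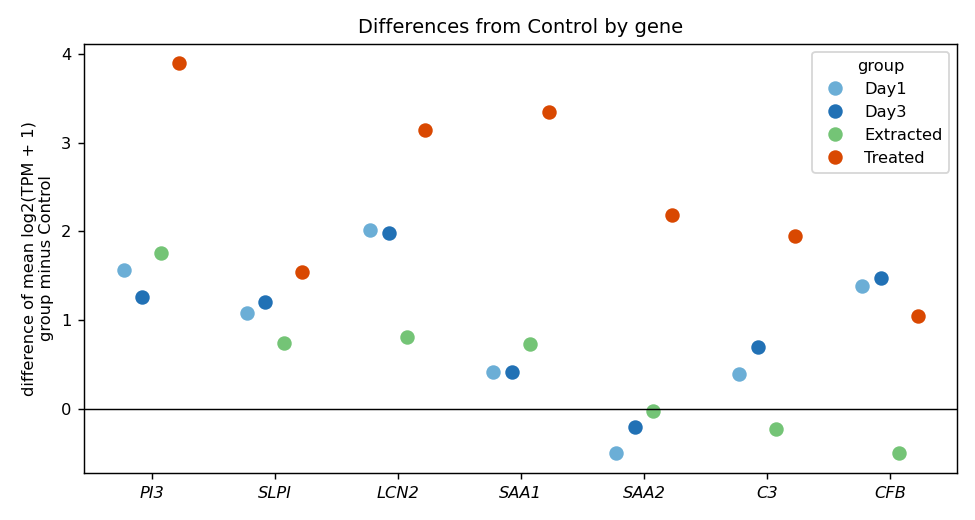
Difference of mean log2(TPM + 1) from Control (y axis) for each gene (x axis) in Day1, Day3, Extracted and Treated cells, n = 2 libraries per group. PI3 reaches 3.89 and SAA1 3.35 in Treated cells, CFB has its largest value on Day3 (1.47), and C3 and CFB lie below 0 in Extracted cells.

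Both libraries stood above both Control libraries for 5 of the 7 genes on Day1 (42.1% of all tested genes did so) and below them for 1, SAA2 (20.7%), above for 6 on Day3 (38.9%) and 7 in Treated cells (18.3%). The choice of members used these comparisons, and these counts describe it. In Treated against Extracted cells all 7 stood above with no overlap (16.5% of all tested genes), with differences on the log2(TPM + 1) scale from 0.81 for SLPI to 2.61 for SAA1. From Day3 to Extracted the differences were -1.97 for CFB, -1.17 for LCN2, -0.92 for C3 and -0.47 for SLPI, and these 4 genes stood below without overlap (41.3% of all tested genes). The difference was 0.49 for PI3, the 1 gene that stood above (27.4%). SAA1 and SAA2 overlapped between these groups. As the members were chosen for high gel or cisplatin values, no test was made of these either.

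The level 2 weeks after release from gel was not part of the choice of members, but the Control libraries were, so limma's test of Extracted against Control (15167 genes) is not independent of that choice, which favours a higher Extracted value. Of the 7 genes 2 were called higher (0.857% of all tested genes were) and 0 lower (1.13%), and nothing is read from these counts. Both libraries stood above both Control libraries for 4 of the 7 (27.3% of all tested genes) and below them for 2, C3 and CFB (30.3%). PI3 stood at 8.58 ± 0.419 TPM in Control and 32.1 ± 9.81 in Extracted cells (n = 2, log2 difference 1.76 ± 0.193 SE, adjusted p = 0.005). SLPI stood at 401 ± 18.1 and 670.4 ± 11.96 TPM (log2 difference 0.74 ± 0.123 SE, adjusted p = 0.0209). Both PI3 and SLPI lost the call without Control replicate 1 (adjusted p = 0.0527 and 0.144) and without Control replicate 2 (0.0866 and 0.187). SLPI also lost it without either Extracted library (0.124 without replicate 1 and 0.195 without replicate 2), without either Day3 library (0.0525 and 0.052) and with no filter on low values (0.0837). Over the 15 alternatives the adjusted p ran from 0.0016 to 0.0866 for PI3 and from 0.0016 to 0.195 for SLPI.

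The other 5 members were not called in Extracted against Control cells. LCN2 was at 30.04 ± 4.77 against 16.6 ± 0.868 TPM (log2 difference 0.81, 95% confidence interval 0.41 to 1.21, adjusted p = 0.0538), and it was called under median-of-ratios scaling (adjusted p = 0.0346), with nuclear protein-coding genes alone (0.0293), and without either Day1 or either Treated library (0.0259 to 0.0478), over a range of 0.0259 to 0.342. CFB was at 3.41 ± 0.686 against 5.19 ± 0.915 TPM (-0.49, -0.83 to -0.16, adjusted p = 0.132) and C3 at 182 ± 15.3 against 213 ± 18.3 (-0.22, -0.57 to 0.12, adjusted p = 0.5). The interval for SAA1 (0.74, -0.18 to 1.66) spanned 0. No interval is given for SAA2, which passed the filter through Treated cells alone and differed by -0.02.

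The gel levels chose the members, so Day3 against Day1 is described with no test. Both Day3 libraries stood above both Day1 libraries for 3 of the 7 genes, SLPI, C3 and CFB (18.6% of all tested genes did so). The difference of Day3 from Day1 on the log2(TPM + 1) scale was 0.13 for SLPI, 0.31 for C3 (279 ± 21.8 TPM on Day1 and 346 ± 19.0 on Day3) and 0.09 for CFB. PI3 differed by -0.29 and LCN2 by -0.03, with overlapping libraries, and the SAA1 and SAA2 libraries overlapped too.

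Genes whose profile over the 10 libraries was most like each member were sought among 10425 tested genes with a mean of at least 5 TPM, by Pearson correlation of log2(TPM + 1), given as a description. For PI3 they were LITAF (0.98), ARPC1B (0.98) and TSPAN1 (0.98). For SLPI they were KLK6, a kallikrein protease (0.99), the ferritin heavy chain FTH1 (0.97) and STK32C (0.96). For LCN2 they were KLK6 (0.96), C19orf66 (0.96) and IFIT1 (0.95). KLK6 went from 30.6 TPM in Control to 58.6 on Day1, 66.3 on Day3, 46.5 in Extracted and 88.9 in Treated cells. For SAA1 they were SERPINA1 (0.96), the cathepsin CTSB (0.95) and P3H4 (0.95), for SAA2 TGM2 (0.98), FBLN1 (0.98) and FBLN2 (0.97), and for C3 LTBP3 (0.96), CTSB (0.96) and S100A9 (0.96). For CFB they were CD82 (0.97), TXNIP (0.96) and STEAP1 (0.96), and TXNIP stood at 5.604, 18.1, 18.5, 5.36 and 14.0 TPM in the same order of groups. All profiles share the same 10 libraries in 5 groups. SAA2 stayed below 1 TPM in every library outside Treated, so its correlations rest largely on the difference between Treated cells and values near the floor. Among the members, the highest correlations were those of SLPI with LCN2 (0.94), SAA1 with SAA2 (0.93) and PI3 with SAA1 (0.93). The lowest was that of CFB with SAA2 (0.066). Because the members were chosen for a higher level in gel or after cisplatin in these libraries, high correlations among them partly follow from that choice. SAA1 and SAA2 can also share reads, so nothing about shared regulation is read from these values.

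Tested genes next to the members on the chromosome were compared as a description of each locus. Their calls are those of the main fit, with no alternative fit given beside them. On chromosome 20, the potassium channel gene KCNS1, 73.8 kb from PI3, stood at 4.01 TPM in Control and 7.58 in Treated cells (limma, log2 difference 0.77, adjusted p = 0.00378), but at 1.94 on Day1, below Control (-0.77, adjusted p = 0.00517) where PI3 stood above it. In Extracted cells it rose by 0.64 (adjusted p = 0.0477). The proteoglycan gene SDC4, 70.7 kb from SLPI, stood at 91.8 TPM in Control and rose to 132.9 in Treated cells (0.53, adjusted p = 0.00933) and 160.5 on Day1 (0.79, adjusted p = 0.00195). Beside LCN2, PTGES2 fell by 0.72 in Treated cells (adjusted p = 0.0013) and by 0.48 on Day1 (adjusted p = 0.0115). C9orf16 rose by 0.55 on Day1, 0.79 on Day3 and 0.60 in Treated cells (adjusted p = 0.0458, 0.0214 and 0.0301). KCNS1, SDC4 and PTGES2 were not called on Day3 against Control (-0.25, 0.14 and -0.06, adjusted p = 0.271, 0.464 and 0.737). HPS5 and SAAL1, on the outer sides of the SAA pair, were not called in any group against Control. TNFSF14, 7.12 kb from C3, had a mean of 0.456 TPM in Control and 2.48 in Treated cells, and it passed the filter through Treated cells alone, so its difference is given with no test. GPR108 overlaps C3 by position and rose by 0.38 on Day1 (adjusted p = 0.0471), and NELFE lies 3 bases beyond CFB. NELFE fell by 0.43 in Treated cells (adjusted p = 0.0148) and was not called on Day1 or Day3.

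The wider set of defence and acute-phase genes held 170 genes in 6 lists, none a member, of which 73 passed the filter. The lists were chosen with earlier results of these data known. Their shares, here and by list below, are therefore a description and no independent support for the pattern of the members. In Treated against Control cells 18 were called higher (24.7%, against 6.28% of all tested genes) and 4 lower (5.48%, against 18.2%). Without genes that passed the filter through 1 group alone, S100A7 and BPIFB1 among the listed, 16 were higher (22.5%, against 6.09%). On Day1 22 were called higher (30.1%, against 14.4%) and 5 lower (6.85%, against 6.28%), and on Day3 14 higher (19.2%, against 5.18%) and 4 lower (5.48%, against 4.64%). In Extracted cells 2 were called higher (2.74%, against 0.857%) and 3 lower (4.11%, against 1.13%). Counts with a library left out, here and below, have no share of all tested genes beside them. They cannot tell whether listed genes lost calls more than other genes did. Without Control replicate 1 the higher calls numbered 12 on Day1, 5 on Day3, 11 in Treated and 0 in Extracted cells. Without Control replicate 2 they numbered 7 on Day3, 10 in Treated and 0 in Extracted cells, without Day3 replicates 1 and 2 the Day3 count was 5 and 6, and without either Extracted library the Extracted count was 0. In Day3 against Day1 2 were called higher (2.74%, against 0.659%) and 9 lower (12.3%, against 1.69%), and 0 either way without Day1 replicate 1 or either Day3 library. Lower calls in Treated cells numbered 1 without Control replicate 2 and 8 without Treated replicate 1.

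**Figure D3:**
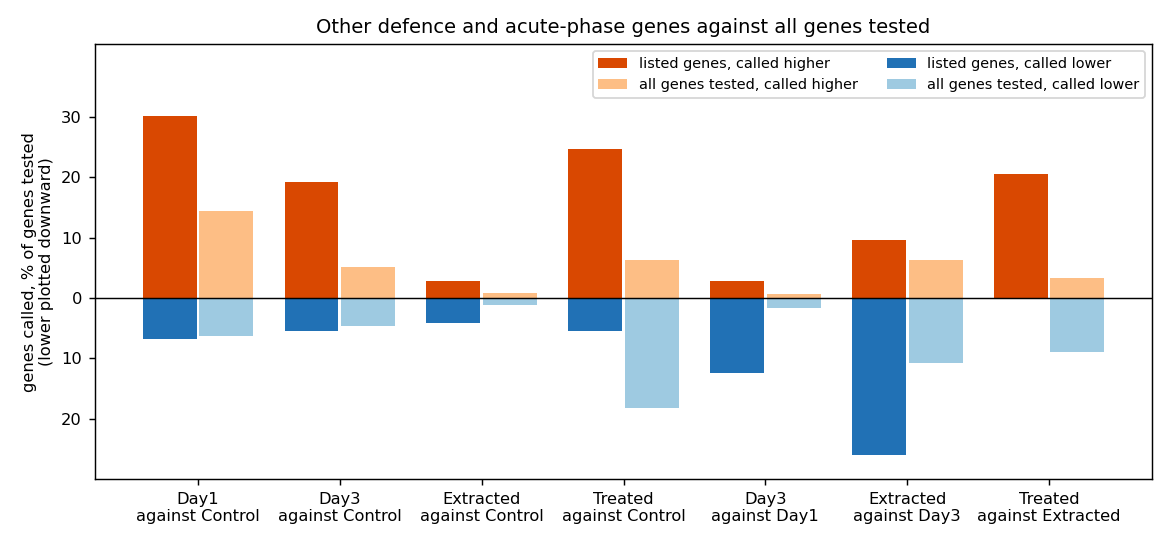
Percent of tested genes called higher (upward) and lower (downward) at an adjusted p under 0.05 with limma, for the 73 listed genes (dark) and all 15167 genes tested (pale), in 7 comparisons. Of the listed genes 30.1% were called higher on Day1 and 24.7% in Treated cells against Control.

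Of 8 measured secreted antimicrobial genes 5 were called higher and 0 lower in Treated cells against Control (62.5%, against 6.28% of all tested genes), of which 2, S100A7 and BPIFB1, passed the filter through Treated cells alone and so had to be higher there. On Day1 4 rose (50.0%, against 14.4%), on Day3 3 (37.5%, against 5.18%) and in Extracted cells 0 (against 0.857%). S100A9 and S100A8, the calprotectin subunits that bind metal ions, stood at 95.9 ± 7.85 and 24.1 ± 4.56 TPM in Treated against 2.38 ± 0.256 and 0.493 ± 0.421 in Control cells (log2 difference 4.84 and 4.09). Both were called on Day1 and Day3 too, by 1.90 and 2.26 for S100A9 and by 1.90 and 2.53 for S100A8. CCL28, a mucosal chemokine with antimicrobial activity, rose from 10.6 ± 0.711 TPM to 23.0 ± 0.321 on Day1, 24.3 ± 1.38 on Day3 and 21.8 ± 0.373 in Treated cells. These calls of S100A9, S100A8 and CCL28 against Control held in every alternative run. S100A7 (psoriasin) was listed at 0 in all libraries outside Treated and at 4.21 and 1.70 TPM in the Treated ones. BPIFB1 was at 0.141 to 0.278 TPM outside Treated and at 1.056 and 1.062 in Treated libraries. The BPIFB1 call in Treated cells was lost without either Control library or Treated replicate 2, among others. ADM rose on Day1 (0.65), a call lost without either Control library, without Day1 replicate 1, without either Extracted library, with no filter and under both other scalings. Of the 31 listed antimicrobial genes 23 stayed below the filter, lysozyme (LYZ), lactoferrin (LTF) and the defensins among them.

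Of 12 measured genes with a WAP domain or antiprotease function, 3 rose on Day1 (25%, against 14.4% of all tested genes), 2 on Day3 (16.7%, against 5.18%), 1 in Extracted (8.33%, against 0.857%) and 4 in Treated cells (33.3%, against 6.28%). In Treated cells 1 fell (8.33%, against 18.2%). WFDC2, which encodes the WAP protein HE4, was at 532.5 ± 13.8 TPM in Control, 1121 ± 146.4 on Day1 and 1169 ± 53.1 on Day3 (log2 difference 1.07 and 1.13). SERPINB1, an intracellular inhibitor of neutrophil elastase, rose on Day1 from 30.8 ± 0.0935 to 57.2 ± 5.86 TPM, and its rise of 0.54 on Day3 was lost without any 1 Control, Day3 or Extracted library. In Treated cells TIMP1 and TIMP2, inhibitors of matrix metalloproteases, rose to 79.1 ± 4.57 from 43.4 ± 1.97 TPM and to 204 ± 16.7 from 136 ± 8.85. TIMP2 also rose by 0.54 in Extracted cells (adjusted p = 0.0337), a call lost without any 1 Control, Day3 or Extracted library, and its call in Treated cells was lost without Control replicate 2. The cystatins CST6 and CSTB rose in Treated cells by 0.93 and 0.45, calls that ended without Control replicate 2, and for CST6 also without Control replicate 1 or Treated replicate 2. CSTB also rose by 0.34 on Day1, a call lost without either Control library, Day1 replicate 2 or either Day3 library and under both other scalings. SPINT2, a membrane inhibitor of serine proteases, was the fall in Treated cells (-0.40), lost without either Control library or Treated replicate 2, under median-of-ratios scaling and with no filter.

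Of 14 measured complement genes 2 rose (14.3%, against 14.4% of all tested genes) and 1 fell (7.14%, against 6.28%) on Day1, shares near those of all genes. On Day3 4 rose (28.6%, against 5.18%), in Extracted cells 1 fell (7.14%, against 1.13%), and in Treated cells 3 rose (21.4%, against 6.28%) and 1 fell (7.14%, against 18.2%). The membrane inhibitors CD55 and CD59 rose on Day1 from 54.3 ± 3.83 to 118 ± 15.4 TPM and from 166 ± 0.553 to 232 ± 7.77. Clusterin (CLU), a fluid-phase inhibitor of the terminal pathway, rose on Day3 from 977 ± 162.7 to 2076 ± 84.7 TPM (log2 difference 1.10, adjusted p = 0.00294). CFI, the protease that inactivates C3b, fell in Treated cells from 10.1 ± 0.393 to 4.83 ± 0.724 TPM (-0.93, adjusted p = 0.00356). Its falls of 0.57 on Day1 and 0.84 in Extracted cells (to 5.19 ± 0.018 TPM) were lost without any 1 Control library, among others. In Treated cells SERPING1 (C1 inhibitor), CFD (factor D, the protease that cleaves factor B) and C1RL rose by 0.77, 0.64 and 0.58, and each lost its call without either Control library. Calls of CD55, CD59 and C1RL on Day3 (0.56, 0.50 and 0.56) were lost without any 1 Control or Day3 library. C2, C4A, C4B, C6 to C9, CFP and the C1q genes stayed below the filter, with C4A and C4B near-identical copies.

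Of 23 listed plasma proteins of the acute phase 4 passed the filter, too few to read a share from, and CRP, HP and the fibrinogen genes FGA, FGB and FGG did not. SERPINA1 (alpha-1-antitrypsin) stood at 14.6 ± 1.36 TPM in Control and 101.2 ± 3.10 in Treated cells (log2 difference 2.71, adjusted p = 2.81e-06). Ceruloplasmin (CP), a copper-carrying ferroxidase, stood at 106 ± 21.3 and 299.2 ± 82.6 TPM (1.47, adjusted p = 0.0011). Both held in every alternative run. SERPINA1 rose by 0.76 in Extracted cells (to 25.5 ± 3.19 TPM, adjusted p = 0.0178), a call lost without any 1 Control or Extracted library. LRG1 rose by 0.58 in Treated cells, and on Day3 CP rose by 0.76 and SERPINA1 by 0.47. The LRG1 call was lost without any 1 Control, Day3 or Extracted library or Treated replicate 2, and the Day3 calls without any 1 Control or Day3 library. The Day3 call of CP also ended without either Extracted library and with the replicate number as a block, and that of SERPINA1 with nuclear protein-coding genes rescaled.

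Of 26 measured cytokines and regulators of these genes 12 rose (46.2%, against 14.4% of all tested genes) and 2 fell (7.69%, against 6.28%) on Day1, which also had more calls among all genes than Day3. On Day3 3 rose (11.5%, against 5.18%) and 3 fell (11.5%, against 4.64%), in Extracted cells 0 rose and 1 fell (3.85%, against 1.13%), and in Treated cells 1 rose (3.85%, against 6.28%) and 0 fell (against 18.2%). NFKBIZ and NFKBIA, both induced by NF-kB, rose on Day1 from 12.04 ± 0.102 to 28.9 ± 8.81 TPM and from 235 ± 3.99 to 399.3 ± 50.0. The IL-6 receptor genes IL6ST and IL6R rose by 1.04 and 0.75, calls lost without Control replicate 1 and, for IL6ST, also without Control replicate 2. On Day3 LIF fell from 30.2 ± 1.22 to 11.5 ± 0.596 TPM (-1.32, adjusted p = 0.00171) and IL6 from 6.14 ± 1.97 to 1.70 ± 0.77 (-1.40), the latter lost without Control replicate 1 or Day3 replicate 2. EHF, an epithelial ETS factor, rose on Day3 from 41.5 ± 6.54 to 75.0 ± 3.16 TPM (0.85, lost without Control replicate 1 or Day3 replicate 1) and fell in Extracted cells to 26.2 ± 2.18 (-0.64, lost without any 1 Control, Day3 or Extracted library). IL6R rose by 0.86 on Day3, lost without any 1 Control or Day3 library, and the ETS factor ELF3 by 0.52, lost without Control replicate 1 or either Day3 library. SOCS3, a feedback inhibitor of cytokine signalling, fell by 0.49 on Day3 and by 0.45 on Day1, when LIF fell by 0.60, and these calls of SOCS3 and LIF were lost without either Control library and with no filter, among others. CEBPB, the call in Treated cells, rose by 0.45 (adjusted p = 0.0168) and lost it without Control replicate 1 or Treated replicate 2.

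Of 9 measured receptors and partners of the members 1 rose (11.1%, against 14.4% of all tested genes) and 2 fell (22.2%, against 6.28%) on Day1, and 1 fell on Day3 (11.1%, against 4.64%) and 1 in Extracted cells (against 1.13%). In Treated cells 2 rose (22.2%, against 6.28%) and 2 fell (22.2%, against 18.2%). TGM2, a transglutaminase, an enzyme class that crosslinks elafin to matrix, rose in Treated cells from 15.9 ± 0.398 to 60.7 ± 4.43 TPM (log2 difference 1.86, adjusted p = 7.76e-05). Its paralog TGM1 fell on Day1 from 6.09 ± 0.0395 to 1.83 ± 0.967 TPM (-1.37) and on Day3 by 0.84, the latter lost without any 1 Control, Day3 or Extracted library. PLSCR1, a scramblase that binds SLPI, rose from 81.7 ± 2.04 TPM to 193 ± 36.3 on Day1 and 146 ± 15.3 in Treated cells. LRP2 (megalin), which takes up lipocalin-2, fell from 12.9 ± 1.56 TPM to 5.81 ± 0.337 in Treated cells (lost without Control replicate 2) and to 6.32 ± 1.88 in Extracted cells (adjusted p = 0.0406, lost without any 1 Control, Day3 or Extracted library). It also ended in Extracted cells, as did the Day3 call of TGM1, with the replicate number as a block. SCARB1, a receptor for serum amyloid A, fell by 0.44 on Day1 and CTSL, a lysosomal protease, by 0.86 in Treated cells. The first was lost without Control replicate 1 or 2 or Day1 replicate 1 and the second without Control replicate 2.

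Listed defence genes were also compared between Treated and Extracted cells and between Extracted and Day3 cells, comparisons chosen after seeing the data. In Treated against Extracted cells 15 of 73 were called higher (20.5%, against 3.24% of all tested genes) and 0 lower by limma (against 8.87%), and 7 were higher without either Extracted library, while 3 were lower without Treated replicate 1. Without genes that passed the filter through 1 group alone, S100A7 and BPIFB1 among the listed, 13 were higher (18.3%, against 3.11%). S100A9 stood at 95.9 ± 7.85 against 2.19 ± 0.232 TPM, SERPINA1 at 101.2 ± 3.10 against 25.5 ± 3.19, CP at 299.2 ± 82.6 against 80.5 ± 6.51 and TGM2 at 60.7 ± 4.43 against 19.3 ± 4.93. From Day3 to Extracted cells 7 rose (9.59%, against 6.3% of all tested genes) and 19 fell (26.0%, against 10.8%). CLU fell from 2076 ± 84.7 to 642 ± 13.4 TPM, WFDC2 from 1169 ± 53.1 to 603 ± 4.35 and S100A9 from 15.3 ± 2.87 to 2.19 ± 0.232, while IL6 rose from 1.70 ± 0.77 to 10.6 ± 1.15 and LIF from 11.5 ± 0.596 to 30.3 ± 5.80. The rises numbered 3 without Day3 replicate 1 or Extracted replicate 2 and 4 without Extracted replicate 1, and the falls 11 without Day3 replicate 2 or Extracted replicate 2.

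**Figure D4:**
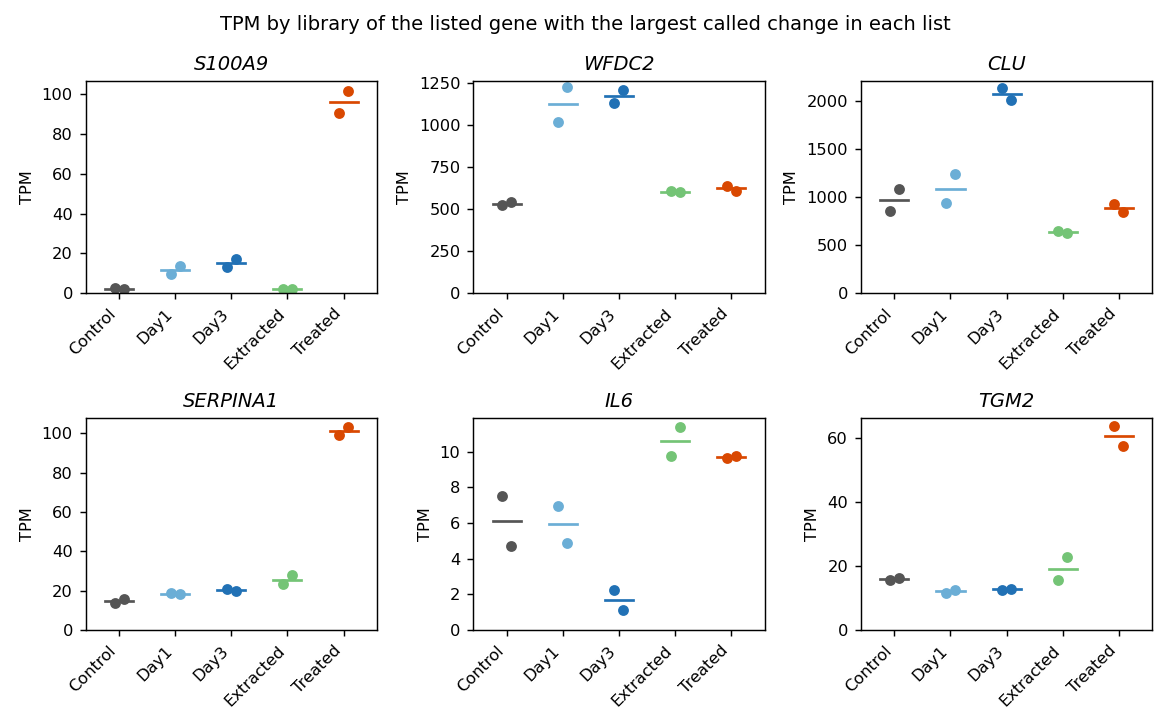
TPM by library (points) with group means of 2 (bars) for the gene of each list with the largest called change, axes from 0. S100A9, SERPINA1 and TGM2 are highest in Treated cells (means 95.9, 101.2 and 60.7 TPM), WFDC2 and CLU in gel, and IL6 is lowest on Day3.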

How the data were processed

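The deposited table gives TPM per gene and library, and the submitters' processing notes name Trimmomatic, STAR, Cufflinks and GRCh38. The sources used here give no tool version, annotation release or use of strand. Because TPM carry no read counts, depth and counting error are unknown. After 349 blank lines were dropped, TPM of 91 repeated identifiers were summed, giving 58222 genes, of which 57959 had a GENCODE release 29 entry.

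The 15167 genes that reached 1 TPM in 2 or more libraries entered a single limma 3.58.1 fit (R 4.3.3) of log2(TPM + 1) over all 10 libraries, with a mean per group, a trended variance prior and 5 degrees of freedom left. Tests were two-sided, with Benjamini-Hochberg adjustment over all tested genes and calls at 0.05. Log2 differences are on that scale and understate changes of low genes. Tables were made with pandas 2.3.3 and plots with Matplotlib 3.10.9 in Python 3.11.15.

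Members and lists were chosen with earlier results of these data known. Members were tested in Extracted against Control, which shares its Control libraries with the choice of members, and described elsewhere. A planned test of Day3 against Day1 is not reported for members, since gel levels chose them. Named were all members, up to 4 called genes with the largest change per list and comparison (the 2 most abundant where none was called), the 3 genes most like each member, and tested neighbours. BPIFB1 and SPINT2 in Treated cells, ELF3 and SOCS3 on Day3, and SOCS3 and LIF on Day1 were added after their values were seen, to complete small counts. Alternatives were median-of-ratios scaling, a pseudocount of 0.1, no filter, rescaling of nuclear protein-coding genes alone, a block for the replicate number, leaving out genes that passed the filter through 1 group alone (chosen after seeing the data), and leaving out single libraries, where the remaining library is assumed to vary as the other groups do. The script was tested on simulated data.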

Additional observations from a re-analysis of the deposited data

Results flagged for a closer look

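Of 73 listed genes 11 differed between Day3 and Day1, the gel times, by limma's test of that difference. Higher on Day3 were 2 (2.74% of the 73, against 0.659% of all tested genes) and lower 9 (12.3%, against 1.69%). The 7 with the largest changes in their lists are given here, with differences on the log2(TPM + 1) scale. Lower on Day3 were 5 of them: IL6 by -1.37, TNF by -1.32, ADM by -1.02, NFKBIZ by -0.97 and PLSCR1 by -0.96. IL6 stood at 5.92 ± 1.48 TPM on Day1 and 1.70 ± 0.77 on Day3 (n = 2), and PLSCR1 at 193 ± 36.3 and 97.9 ± 5.89. CLU was higher on Day3 by 0.94 (2076 ± 84.7 against 1092 ± 212.8 TPM) and EHF by 0.78 (75.0 ± 3.16 against 43.3 ± 0.56). The calls of IL6, TNF, ADM, NFKBIZ, PLSCR1, CLU and EHF were all lost without Day1 replicate 1, without either Day3 library and with no filter on low values.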

How the results depend on the processing

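The pseudocount of 0.1 ended no member's call and moved no count of listed calls by over 1.5 times. It moved low members: SAA1 in Extracted against Control from 0.74 to 1.58 and SAA2 from -0.02 to -0.25, and in Day3 against Day1 SAA1 from 0.00079 to 0.28 and SAA2 from 0.29 to 1.30. Same-numbered libraries deviated together little over all tested genes (correlations from -0.022 to 0.087). Such correlations cannot show whether libraries of the same number were paired, since a pairing may touch few genes. In the limma fit with the replicate number as a block, PI3 differed between Extracted and Control cells by 1.76 (adjusted p = 0.00962) and SLPI by 0.74 (0.0274). In that fit 24 listed genes were higher on Day1. With no filter SLPI (0.74) lost its call in Extracted cells. LCN2 gained one there under median-of-ratios scaling (0.83) and with nuclear protein-coding genes rescaled (0.75). With no filter the listed genes called lower numbered 3 on Day1, 1 on Day3, 0 in Extracted cells and 0 in Day3 against Day1, and those called higher 1 in Extracted cells and 1 in Day3 against Day1. Under median-of-ratios scaling the higher calls numbered 5 in Extracted cells, 5 in Day3 against Day1 and 14 in Extracted against Day3. With nuclear protein-coding genes rescaled they numbered 4, 5 and 14, and the lower calls 8 on Day1 and 6 in Extracted cells. The higher calls on Day1 went from 22 to 18 under median-of-ratios scaling and to 16 with nuclear protein-coding genes rescaled. In Treated cells they went from 18 to 27 and 23, so the order of Day1 and Treated by these counts changed with the scaling. The shares of all tested genes under these scalings are not given. These counts therefore cannot tell whether listed genes gained or lost calls more than other genes did. The cause of these shifts was not tested.

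With each library left out in turn, the difference of Extracted from Control cells ran from 1.45 to 2.06 for PI3, 0.70 to 0.79 for SLPI, 0.65 to 0.97 for LCN2, 0.19 to 1.28 for SAA1, -0.34 to 0.31 for SAA2, -0.31 to -0.14 for C3 and -0.65 to -0.33 for CFB. That of Day3 from Day1 ran from -0.47 to -0.12 for PI3, 0.13 to 0.14 for SLPI, -0.29 to 0.23 for LCN2, -0.55 to 0.55 for SAA1, 0 to 0.59 for SAA2, 0.23 to 0.39 for C3 and 0.04 to 0.14 for CFB. Higher and lower calls of listed genes ran from 12 to 23 and 1 to 5 on Day1, 5 to 17 and 1 to 4 on Day3, 0 to 4 and 0 to 4 in Extracted, and 10 to 21 and 1 to 8 in Treated cells. They ran from 0 to 4 and 0 to 13 in Day3 against Day1, 3 to 8 and 11 to 23 in Extracted against Day3, and 7 to 17 and 0 to 3 in Treated against Extracted. Of 103 calls of named listed genes 43 held in every alternative refit and 0 changed sign. With no filter, calls of SERPINB1, C1RL, CD55, CP, SERPINA1, IL6, TGM1 and SOCS3 on Day3, TIMP2, CFI, EHF and LRP2 in Extracted, CST6, SERPING1 and LRG1 in Treated cells, and CFI and IL6ST on Day1 were lost, and with the pseudocount of 0.1 those of TGM1 on Day3 and BPIFB1 in Treated cells. TPM hold no depth, so low genes such as SAA1 and SAA2 have no counting limit here.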
